A study of Mus musculus with 16 samples.

Results

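The transcripts 4833412C05Rik, Gm11627, Gm11946 and Gm34302, which the deposited tables list under predicted or clone names, were followed in 2 sets of mouse hearts lacking CAP2, the actin-binding cyclase-associated protein of striated muscle. They were chosen for strong changes in these same data, so their group differences are a description, with no test. They are 4 of the 54232 genes listed in experiment B and, as 3 rows, of the 38087 genes listed in experiment A; Gm34302 in experiment A was not analysed here. The rows 4833412C05Rik, Gm11627 and Gm11946 were higher without CAP2 in both experiments, and Gm34302 was close to 0 in hearts whose muscle cells carried Cre while every control held 63 normalized counts or more.

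The study asked which transcripts differ in hearts without CAP2. Experiment A held 3 CAP2 -/- and 3 WT hearts from 86-week-old C57BL/6 females, with CAP2 missing in the whole body, made into Ion Total RNA-Seq libraries. Experiment B held 13-week-old C57BL/6 mice, all with both Cap2 alleles flanked by loxP: 4 Cre+ hearts (replicates 1 to 3 female, replicate 4 male) carrying Cre under the Myh6 promoter of heart muscle cells, and 5 Cre- loxP controls (replicates 1 to 3 female, 4 and 5 male), made into stranded Illumina TruSeq mRNA libraries. Cre+ hearts differed from controls in both Cre and Cap2, and these cannot be told apart, and another labelled Cre+ library was not analysed here.

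Long noncoding RNAs are transcribed and often spliced like messenger RNAs but are not thought to be translated, and some short transcripts once filed with them were later found to encode micropeptides. One such micropeptide is DWORF, made in heart and slow skeletal muscle, which sits in the membrane of the sarcoplasmic reticulum and raises the activity of the calcium pump SERCA by displacing its inhibitor phospholamban. Stressed hearts are known to re-express a fetal gene programme, which includes natriuretic peptides and the skeletal isoform of actin.

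The label of these transcripts as unnamed held for only some of them. Gm34302 (ENSMUSG00000103476) is Strit1 in RefSeq, with DWORF among its synonyms, and 4833412C05Rik (ENSMUSG00000097697, listed as AC158296.2 in the experiment A table) carries the RefSeq synonym Bigheart, a name used for a noncoding RNA studied in cardiac hypertrophy. In mm10 with GENCODE M21, Gm34302 is protein-coding and lies on the minus strand at chr3:63481112-63483879, and 4833412C05Rik is a long intergenic noncoding RNA on the minus strand at chr7:67784538-67804139. Gm11627 (ENSMUSG00000078640, minus strand, chr11:102576398-102579461) is protein-coding in GENCODE and a long noncoding RNA in RefSeq. Gm11946 (ENSMUSG00000087291, plus strand, chr11:3530157-3536856) is a processed transcript in GENCODE and a long noncoding RNA in RefSeq, and its whole GENCODE span lies inside Smtn on the opposite strand, while its longer RefSeq span (chr11:3530364-3546560) runs past the GENCODE end of Smtn.

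Both protein-coding models rest on short reading frames, which are shown here because they are what separates these transcripts from noncoding RNA in the annotation. The frame of Gm34302 has 34 codons before the stop in a transcript of 243 bases, and that of Gm11627 has 55 codons before the stop in a transcript of 818 bases; the same Gm11627 frame is annotated in a transcript of 585 bases. The capitals mark the start and stop codons, read from the GENCODE M21 transcripts.
Gm34302 coding sequence: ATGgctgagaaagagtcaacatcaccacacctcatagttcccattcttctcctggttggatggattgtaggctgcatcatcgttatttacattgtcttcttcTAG
Gm11627 coding sequence: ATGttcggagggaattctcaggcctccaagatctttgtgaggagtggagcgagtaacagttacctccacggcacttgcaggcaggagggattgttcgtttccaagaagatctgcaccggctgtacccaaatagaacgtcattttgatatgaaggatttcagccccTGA

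For 4833412C05Rik the window of 250 bases before to 50 bases after its RefSeq start (GRCm38.p6, minus strand, chr7:67803447-67803746) is shown because it held the one CArG box among the windows of these transcripts; the capitals mark that box.
4833412C05Rik promoter: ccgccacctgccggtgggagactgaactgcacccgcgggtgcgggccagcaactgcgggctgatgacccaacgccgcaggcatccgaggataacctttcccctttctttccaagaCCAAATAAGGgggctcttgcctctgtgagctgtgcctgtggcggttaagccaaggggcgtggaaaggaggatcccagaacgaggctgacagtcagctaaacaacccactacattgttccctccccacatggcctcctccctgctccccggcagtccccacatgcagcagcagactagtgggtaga
A CArG box is the site bound by serum response factor (CC, then 6 bases of A or T, then GG, searched on both strands). It lay at -135 to -126 relative to the start, and 1.63% of the 32817 windows of the same length in the RefSeq table held one. None of the windows of Gm11627, Gm34302 and Gm11946, the last with 5 windows, held a CArG box, a MEF2 motif, the TEAD motif GGAATG, the GATA motif AGATAA or the TATA motif TATAAA, and apart from its CArG box 4833412C05Rik held none of these either. The short NFAT motif GGAAA was in the windows of 4833412C05Rik, Gm11627 and Gm34302, and in 61.3% of all windows. Of the 5 windows of Gm11946 only window 3 held it. A match is a description of letters and not a site, and the lack of a match says nothing about a factor.

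Cap2 itself followed the labels. It was at 8.34, 16.2 and 12.0 CPM in CAP2 -/- hearts and at 197, 217 and 228 CPM in WT hearts (edgeR log2 fold change -4.13, SE 0.20, adjusted p = 1e-07). In experiment B it averaged 65 ± 24.2 normalized counts in Cre+ and 391 ± 288 in control hearts, with every Cre+ library below every control (SD, n = 4 and 5; limma log2 fold change -2.22, SE 0.36, adjusted p = 0.0161). That call was lost without Cre+ replicate 4 or control replicate 1 (limma adjusted p = 0.0922 and 0.0687). Library totals in experiment A were 10750175 to 27440478 estimated counts. The values of experiment B are whole-number normalized counts of unknown depth, in which mitochondrial genes took 23.0% to 52.7% of the total in Cre+ and 30.4% to 69.5% in control hearts. These are values of whole hearts, in which more cells of a type and more RNA per cell cannot be told apart. The labels do not say that the libraries are from separate animals, and if they are not, the p-values speak only of variation among these libraries, which could be technical.

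4833412C05Rik was at or near 0 in hearts with CAP2 and detected in every heart without it. In experiment A it had 8.75, 24.4 and 12.6 estimated counts in CAP2 -/- hearts, against 1, 0 and 0 in WT hearts. Every CAP2 -/- library thus lay above every WT library, but the WT level rests on 1 count in 1 library. Per total count the ratio of the summed counts, 46 over 1, was 61, with an exact 95% interval of 10.4 to 2460 that covers counting error only. The fitted log2 fold change was 5.48 (SE 0.92), the rank 3 rise of 16297 genes. In experiment B the transcript had 88, 141, 182 and 74 normalized counts in Cre+ hearts, against 1, 1, 1, 0 and 1 in the controls. It averaged 121 ± 49.7 in Cre+ and 0.8 ± 0.447 in control hearts (SD, n = 4 and 5), with a log2 fold change of 5.95 (SE 0.43) on the log2(value + 1) scale, the rank 2 rise of 12141 genes. Among the Cre+ libraries, replicates 1 and 4 were the lower and replicates 2 and 3 the higher, and the one male, replicate 4, was the lowest.

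Gm11627 was higher without CAP2 in both experiments, on a low level in the hearts with CAP2. In experiment A it had 8.39, 10.1 and 8.78 CPM in CAP2 -/- hearts, against 0.215, 0.093 and 0.649 CPM in WT hearts. The 3 CAP2 -/- libraries were close to each other, while WT replicate 3 was above the other WT libraries. Scaled to TMM-adjusted totals it averaged 9.23 ± 0.747 CPM in CAP2 -/- and 0.317 ± 0.29 CPM in WT hearts (SD, n = 3 each), a 27.7-fold difference (log2 4.79, SE 0.41). In experiment B it had 83, 46, 64 and 82 normalized counts in Cre+ hearts, against 8, 9, 10, 4 and 7 in the controls. All controls held some of it, unlike 4833412C05Rik, and the groups did not overlap. The means were 68.8 ± 17.5 in Cre+ and 7.6 ± 2.3 in control hearts (SD, n = 4 and 5), a 7.96-fold difference (log2 2.99, SE 0.36).

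Gm11946 was higher without CAP2 in both experiments, and 1 Cre+ library stood above the rest. It had 4.08, 4.09 and 3.58 CPM in CAP2 -/- hearts, against 0.458, 0.493 and 0.315 CPM in WT hearts. On TMM-adjusted totals this was 3.99 ± 0.326 CPM in CAP2 -/- and 0.407 ± 0.0993 CPM in WT hearts (SD, n = 3 each), a 9.58-fold difference (log2 3.26, SE 0.41). In experiment B it had 111, 20, 36 and 28 normalized counts in Cre+ hearts, against 2, 2, 1, 1 and 0 in the controls. Cre+ replicate 1 held more than the other 3 Cre+ libraries together, and even the lowest Cre+ library was above every control. The log2 fold change was 4.17 (SE 0.60, 17.9-fold), and the SD of 42 around the Cre+ mean of 48.8 is nearly as large as the mean.

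Gm34302, the DWORF transcript, had 3, 0, 0 and 3 normalized counts in Cre+ hearts, against 92, 280, 134, 63 and 93 in the controls. All Cre+ libraries were at or near 0, with 1.5 ± 1.73 on average, and the controls at 132 ± 86.3 (SD, n = 4 and 5). The log2 fold change of -5.87 (SE 0.60) was the largest fall of the 12141 genes tested, a 58.6-fold difference on the log2(value + 1) scale. Among the controls replicate 2 was the highest and replicate 4, a male, the lowest.

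**Figure D1:**
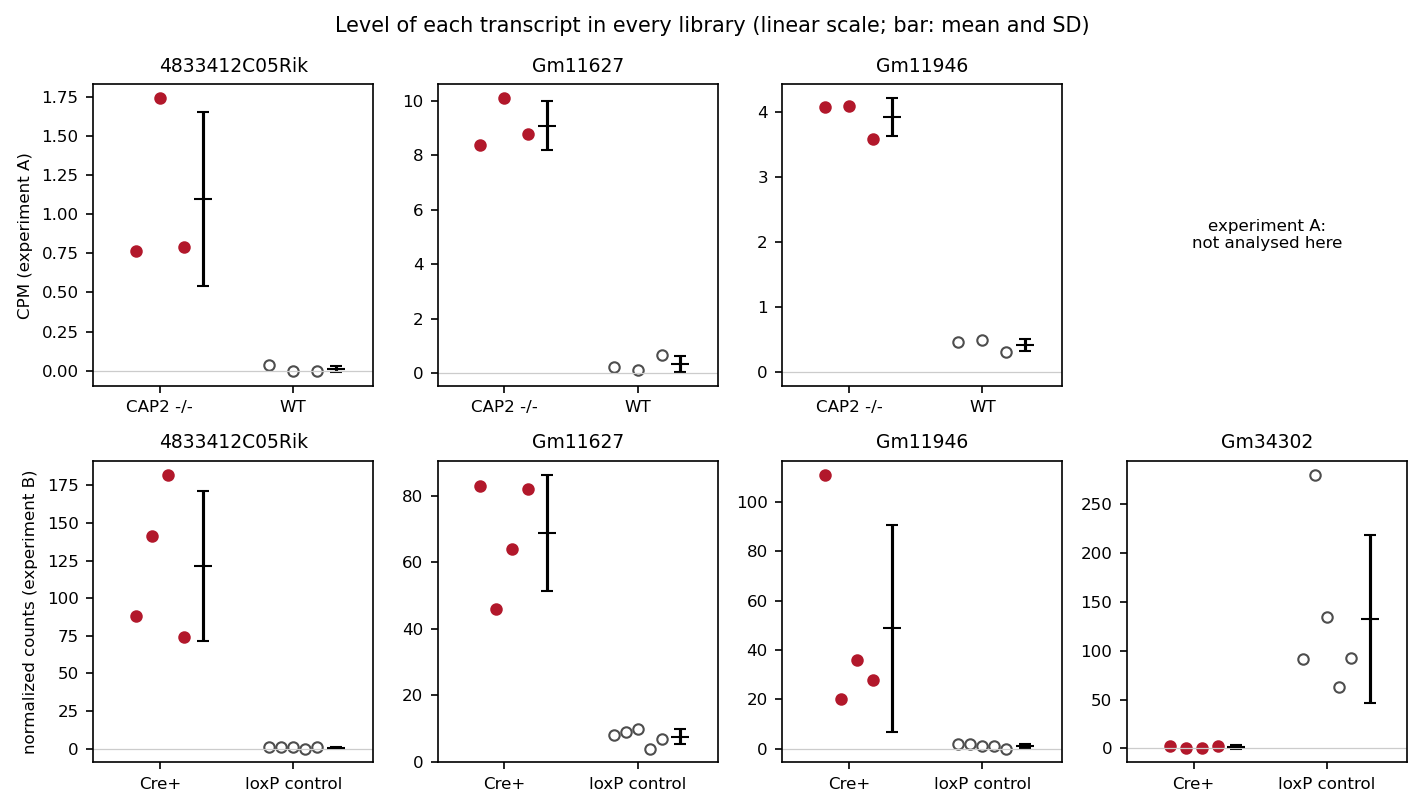
Each point is one library. The upper row gives CPM on unadjusted totals in experiment A (CAP2 -/- left, WT right) and the lower row normalized counts in experiment B (Cre+ left, loxP control right), with bars for mean and SD. No panel has groups that overlap: 4833412C05Rik sits at 74 to 182 in Cre+ against 0 or 1 in controls, and Gm34302 at 0 to 3 in Cre+ against 63 to 280.

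All 3 rows tested in experiment A passed an adjusted p of 0.05 as higher in CAP2 -/-, as did 0.841% of the 16297 genes, and none of the 3 had overlapping groups, as for 7.6% of genes in that direction. In experiment B 3 passed as higher in Cre+, beside 0.947% of the 12141 genes, and Gm34302 passed as lower, beside 0.931% (1.88% in either direction). Groups that do not overlap were found for 3.87% of genes in the higher and 4.79% in the lower direction there, 8.66% in all. Gm11946 missed the threshold of experiment B without Cre+ replicate 4 (log2 fold change 4.08), and Gm11627 and Gm11946 missed it with the atrial marker level as a covariate. Since the transcripts were picked for these contrasts, nothing is read from these counts. The authors' deposited table for experiment A gives log2 fold changes of 6.06 (SE 1.25) for 4833412C05Rik, 4.70 (SE 0.39) for Gm11627 and 3.78 (SE 0.47) for Gm11946, on mean normalized counts of 17.5, 145 and 56.5.

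Per kilobase of exon the order of the mean levels differed between the groups of experiment B, with Gm34302 lowest in Cre+ and highest in control hearts. In Cre+ hearts 4833412C05Rik had 86.9 ± 35.6 and Gm11627 59.3 ± 15.1 normalized counts per kb, with libraries that overlap at 53.0 to 130 and 39.7 to 71.6. Gm11946, at 11.2 ± 9.67 per kb, and Gm34302, at 6.17 ± 7.13, followed below both, and they too overlapped each other. In control hearts Gm34302 was the most abundant at 545 ± 355 per kb, and its lowest library, at 259, was above every library of the others. Gm11627 came next at 6.55 ± 1.98 per kb, and 4833412C05Rik (0.573 ± 0.321) and Gm11946 (0.276 ± 0.193) were lowest, again with overlapping libraries. In experiment A Gm11627 was highest, at 7.96 ± 0.644 CPM per kb in CAP2 -/- and 0.274 ± 0.25 in WT hearts, and 4833412C05Rik and Gm11946 were at 0.803 ± 0.37 and 0.917 ± 0.0751 CPM per kb in CAP2 -/- hearts, where their libraries overlapped. In WT hearts the libraries of Gm11627 (0.0794 to 0.555 CPM per kb) overlapped those of Gm11946 (0.0674 to 0.108), and 4833412C05Rik lay below both at 0 to 0.0258.

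Exon rows of experiment A show where along each transcript the counts lay. For 4833412C05Rik the CAP2 -/- counts covered all 3 exonic blocks, with sums of 7, 8.19 and 30.5 from the 5′ to the 3′ end, against 0, 0 and 1 in WT. The first block ends at the RefSeq start, base 67803496, from which the promoter window above is measured. Divided by length the blocks were nearly even, at 53.0, 41.8 and 53.7 counts per kb. For Gm11627 the counts were concentrated in blocks 3 and 5 of 5, which held 136 and 208 counts in CAP2 -/-, 36% and 55.3% of the exon counts, against 3 and 13.7 in WT. Its blocks 2 and 4 held 0.985 and 6 counts in CAP2 -/- hearts, against 1 and 0 in WT. For both transcripts the exon rows added up to 99.8% or 99.9% of the gene count in CAP2 -/- hearts, and to 100% and 99.9% in WT hearts.

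Gm11946 was different in this respect. Its exon rows held 80.5%, 69.0% and 70.8% of the gene count in CAP2 -/- libraries, against 14%, 7.38% and 44.2% in WT libraries, in all 118 of 161 counts in CAP2 -/- and 4.48 of 23.1 in WT. Most of the small WT count therefore lay outside its exon rows. Block 4, the long exon of 2983 bases, held 81.2 counts in CAP2 -/- and 3.19 in WT, and block 2 held 29.7 and 0.85. Per length, blocks 2, 3 and 4 were even in CAP2 -/- hearts, at 29.5, 29.4 and 27.2 counts per kb.

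**Figure D2:**
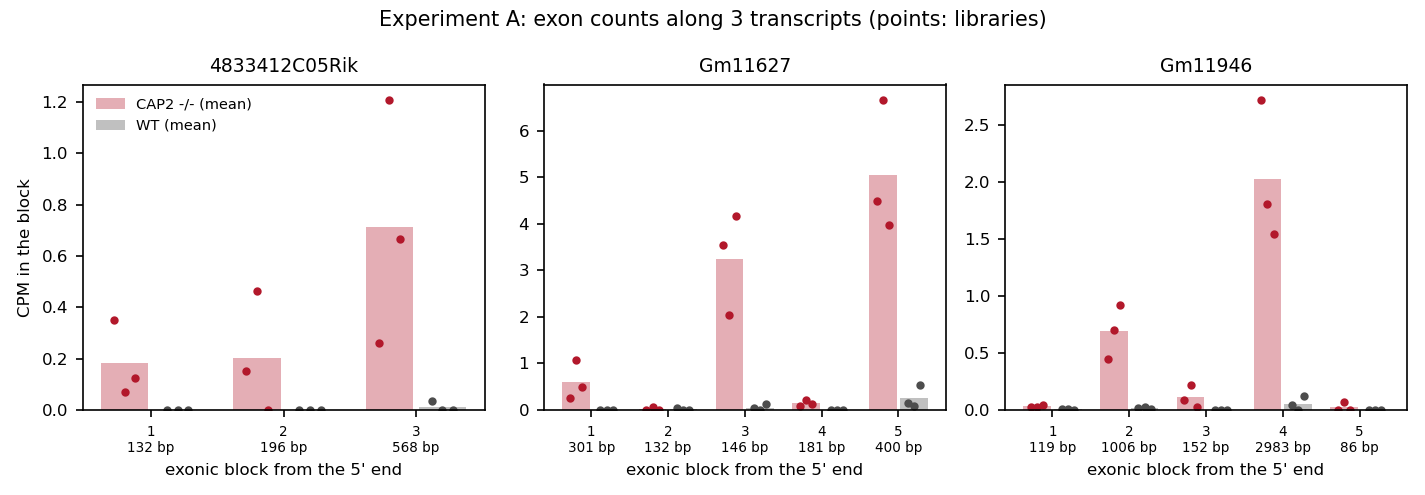
CPM in each exonic block of experiment A, from the 5′ to the 3′ end, with the block length in bases; bars are means (CAP2 -/- left, WT right) and points are libraries. In Gm11627 blocks 3 and 5 hold most of the signal, and in Gm11946 blocks 2 and 4; WT bars are close to 0 throughout.

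Rows per transcript in the experiment A table hold values from 0 to 1, whose meaning is not stated and which do not add up to 1 for Gm11946. For Gm11627 the 818-base transcript stood at 0.674, 0.326 and 0.0676 in CAP2 -/- replicates 1 to 3, against 0.000499, 0.000874 and 0.0376 in WT. The 796-base noncoding transcript stood at 0.173, 0.489 and 0.742 in CAP2 -/-, against 0.000711, 0.00155 and 0.866 in WT. The 585-base transcript stood at 0.125, 0.151 and 0.174 in CAP2 -/-, against 0.980, 0.998 and 5.45e-09 in WT. The CAP2 -/- libraries thus differed among themselves in which transcript had the highest value, as did the WT libraries. The WT values rest on gene counts of 1 to 10.8.

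Gm11946 shares its locus with Smtn, which encodes smoothelin, a cytoskeletal protein of smooth muscle. Of the 4346 exonic bases of Gm11946, 714 (16.4%) lie in Smtn exonic blocks, and how strand was used in counting is not given in the sources used here, so reads of the pair cannot be told apart there. Smtn itself was at 203 ± 17.5 CPM in CAP2 -/- and 151 ± 17.7 CPM in WT hearts (SD, n = 3 each; log2 0.42, edgeR adjusted p = 0.121), and at 1040 ± 193 normalized counts in Cre+ and 625 ± 201 in control hearts (log2 0.74, limma adjusted p = 0.177). Gm11946 stood at 1.71% to 2.24% of the Smtn level in CAP2 -/- libraries, against 0.234% to 0.294% in WT libraries. The share in experiment B was 2.23% to 9.97% of Smtn in Cre+, against 0% to 0.33% in controls. Neither experiment had overlapping shares. Of the Smtn blocks with at least 1 CPM in WT, the 4 that share bases with Gm11946 had CAP2 -/- over WT ratios of 0.966 to 1.04. The 3 inside its span that share none had ratios of 0.653 to 1.66 with a median of 0.76, and the 14 outside its span had ratios of 0.5 to 1.86 with a median of 1.41, so the ranges overlap.

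Genes within 200 kb of the transcripts were examined next, since they were picked by position and not by value. Of 64 such genes, 29 were tested in experiment A and 22 in experiment B. In experiment A 1 rose (Fzd2) and 1 fell (Mme), beside 0.841% and 0.509% of all genes, and in experiment B 2 rose (Fzd2, Synm) and 1 fell (Mme), beside 0.947% and 0.931%. The median log2 fold change of the tested neighbours was -0.02 in experiment A and 0.04 in experiment B, against 0.006 and -0.116 over all genes.

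Fzd2, a Frizzled receptor for Wnt ligands, starts 24.9 kb upstream of Gm11627 on the opposite strand (chr11:102604396-102608058). It had 11.4, 15.8 and 14.1 CPM in CAP2 -/- hearts, against 5.8, 3.32 and 3.51 CPM in WT hearts (edgeR log2 fold change 1.68, SE 0.24, adjusted p = 0.00117). In experiment B it had 153, 87, 85 and 83 normalized counts in Cre+, against 8, 22, 29, 9 and 25 in controls (limma 2.48, SE 0.43, adjusted p = 0.0203). The groups did not overlap in either experiment, as for Gm11627. Gm11627 amounted to 62.9% to 76.7% of the Fzd2 level in CAP2 -/- and 2.78% to 18.1% in WT libraries, and to 52.9% to 98.8% in Cre+ and 28.0% to 100% in control libraries, where the shares overlapped. In experiment B the Fzd2 call was lost without Cre+ replicate 2, 3 or 4 or without control replicate 1 or 2 (limma adjusted p = 0.0648, 0.0634, 0.0893, 0.053 and 0.0525), and with the atrial marker level as a covariate (log2 2.14, adjusted p = 0.441).

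Mme, which encodes the membrane peptidase neprilysin, lies 95.1 kb downstream of Gm34302 on the opposite strand (chr3:63241537-63386030) and was the one tested gene near it. It had 3.9, 5.29 and 5.28 CPM in CAP2 -/- hearts, against 10.1, 14.2 and 16.3 CPM in WT hearts (edgeR log2 fold change -1.47, SE 0.23, adjusted p = 0.00239). In experiment B it had 5, 2, 5 and 12 normalized counts in Cre+, against 19, 34, 46, 94 and 44 in controls (limma -2.62, SE 0.43, adjusted p = 0.0161). Control replicate 4 had the highest Mme but the lowest Gm34302 of the controls. The Mme call of experiment B was lost without Cre+ replicate 2 or 4 or control replicate 2 or 3 (limma adjusted p = 0.0524, 0.065, 0.0615 and 0.0515), and with the mitochondrial share (log2 -2.36, adjusted p = 0.109) or the atrial marker level (-2.73, 0.196) as a covariate.

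Synm, which encodes the intermediate filament protein synemin, lies 24.8 kb downstream of 4833412C05Rik on the same strand (chr7:67730160-67759742). It had 202, 494, 576 and 364 normalized counts in Cre+, against 32, 104, 148, 54 and 138 in controls (limma log2 fold change 2.21, SE 0.48, adjusted p = 0.0437). In experiment A it was at 17.8 ± 2.25 CPM in CAP2 -/- and 11.5 ± 1.49 CPM in WT hearts (SD, n = 3 each; log2 0.63, edgeR adjusted p = 0.113), with libraries that did not overlap. The ratio of 4833412C05Rik to Synm was 4.02% to 9.59% in CAP2 -/- and 0% to 0.286% in WT libraries. It was 20.3% to 43.6% in Cre+ and 0% to 3.12% in control libraries. The Synm call was also lost without each of 3 Cre+ and 3 control libraries, namely Cre+ replicates 2, 3 and 4 and control replicates 1, 2 and 3 (limma adjusted p = 0.138, 0.146, 0.16, 0.109, 0.1 and 0.0518). It was lost as well with the atrial marker level as a covariate (log2 1.18, adjusted p = 0.87), with the mitochondrial share as one (2.25, 0.163) and in females alone (2.27, 0.0831). Of the neighbours of Gm11946, edgeR and DESeq2 each called 0 of 14 in experiment A and limma 0 of 9 in experiment B, with 4, 4 and 6 at an unadjusted p under 0.05. The closest tested gene on the same strand, Selenom at 12.8 kb, gave a log2 fold change of 1.71 in experiment B (limma adjusted p = 0.0648) and 0.67 in experiment A (edgeR adjusted p = 0.126). Gm11947, on the same strand inside the span of Gm11946, lay below the filters. It had 0.0436, 0.0357 and 0.0314 CPM on unadjusted totals in CAP2 -/- hearts, against 0 in each WT heart. In experiment B it had 3, 2, 2 and 0 normalized counts in Cre+, against 0 in each control. Whether it shares reads with Gm11946 was not tested.

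**Figure D3:**
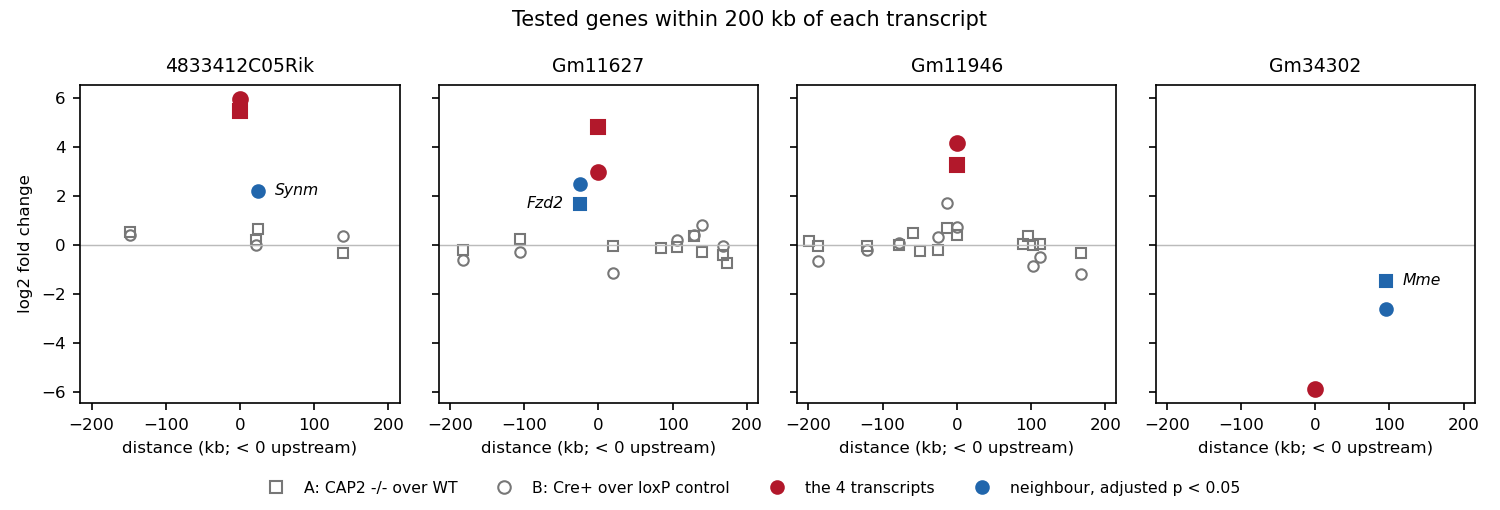
Log2 fold changes of tested genes against their distance from each transcript in kb (squares, experiment A; circles, experiment B; red, the transcript; blue, neighbours with an adjusted p under 0.05). Most neighbours lie near 0, while Fzd2 (1.68 and 2.48) and, in experiment B, Synm (2.21) and Mme (-2.62) differ in the same direction as the transcript beside them. Mme is at -1.47 in experiment A, where Gm34302 was not analysed.

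The calcium pump that DWORF acts on was read beside Gm34302. Pln, which encodes phospholamban, had 3096, 2871, 2161 and 2922 normalized counts in Cre+, against 8324, 6098, 6017, 17025 and 7680 in controls, and fell (limma log2 fold change -1.53, SE 0.30, adjusted p = 0.0333). The Pln call was lost without Cre+ replicate 2, 3 or 4 or control replicate 1, 2 or 3 (limma adjusted p = 0.102, 0.117, 0.171, 0.11, 0.0775 and 0.0558). Atp2a2, the gene of the cardiac pump SERCA2 and here chosen after its values were seen, had 11964, 13979, 11295 and 17249 in Cre+, against 24846, 18980, 17966, 89706 and 26162 in controls (log2 -0.96, limma adjusted p = 0.17). Its groups did not overlap, yet it missed the threshold. Gm34302 stood at 0% to 0.103% of the Pln level in Cre+ and 0.37% to 4.59% in control libraries, which did not overlap. Relative to Atp2a2 it was at 0% to 0.0251% in Cre+ and 0.0702% to 1.48% in control libraries.

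Atp2a1, the gene of the fast skeletal pump SERCA1, rose, with 7, 65, 47 and 60 normalized counts in Cre+, against 1, 0, 1, 1 and 1 in controls (log2 4.43, SE 0.70, limma adjusted p = 0.0142), a call lost without Cre+ replicate 2, 3 or 4 (0.077, 0.0702 and 0.112). Sln, which encodes sarcolipin, an atrial inhibitor of the pump, had 8, 1292, 2755 and 2754 in Cre+, against 8, 74, 430, 0 and 14 in controls (log2 4.48, SE 2.19, adjusted p = 0.265). Cre+ replicate 1 was at the level of a control for Sln while its Gm34302 was at 3. In experiment A neither Atp2a2 (log2 -0.18, edgeR adjusted p = 0.578), Pln (-0.14, 0.733) nor Atp2a1 (-0.09, 0.956) passed, and Sln was at 0 to 0.0628 CPM in CAP2 -/- and 0 to 0.186 CPM in WT hearts.

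**Figure D4:**
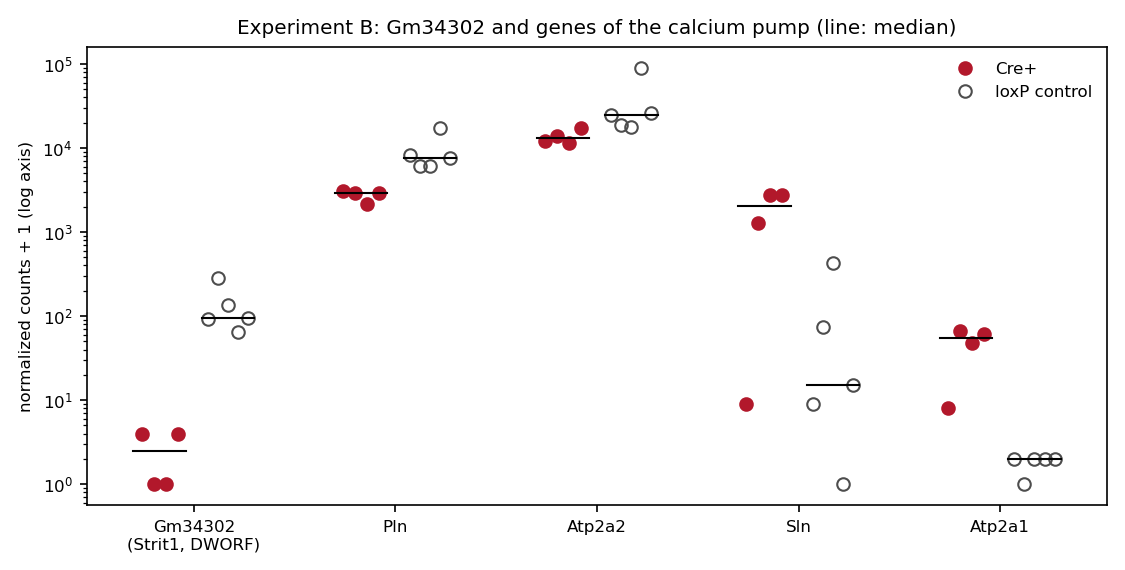
Normalized counts plus 1 in experiment B on a log axis, one point per library and a line at the median (Cre+ left, loxP control right). Gm34302 and Pln are lower in every Cre+ library than in any control, Atp2a1 is higher in each, and Sln in Cre+ replicate 1 sits at 8, level with control replicate 1.

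Markers of other cell types were counted beside these results. In experiment B the summed atrial markers ran from 84179 to 175767 normalized counts in Cre+ and from 262 to 10721 in controls. The Cre+ sums were mostly Nppa, at 80982 to 155401, while Nppa was at 0 to 2511 in controls. Of these markers limma called 0 of 9 (3 at an unadjusted p under 0.05). Of the 12 fast skeletal markers 7 were tested and 4 rose (Casq1, Atp2a1, Tnni2, Tnnt3). The fibroblast markers summed to 11489 to 39203 in Cre+ and 3381 to 14380 in controls, with 1 of 8 called, Postn. In experiment A the atrial markers summed to 3770 to 4642 CPM in CAP2 -/- and to 205 CPM at most in WT hearts. The CAP2 -/- sums were again mostly Nppa. Nppa and Dkk3 were called, while the atrial marker Sln was at or near 0 in all 6 libraries. Smooth muscle and pericyte markers summed to 2676 to 3777 CPM in CAP2 -/- and 872 to 998 CPM in WT hearts, and to 13600 to 22749 normalized counts in Cre+ and 4015 to 12500 in controls, with Acta2 called as higher in both experiments, 1 of 7 each. In experiment A 1 of 10 tested fast skeletal markers rose as well, Casq1, and 1 of 8 ventricular markers, Actc1. The call of Postn was lost without Cre+ replicate 2 or 3 or control replicate 1, 2, 3 or 4 (limma adjusted p of up to 0.129), and that of Acta2 without CAP2 -/- replicate 2 or 3 or WT replicate 3 (edgeR adjusted p of up to 0.103) or, in experiment B, Cre+ replicate 2, 3 or 4 or control replicate 1, 2 or 3 (limma adjusted p of up to 0.16). No defining marker on these lists was at 0 in all libraries. The part of other cells in the levels of the 4 transcripts was not tested. With the atrial marker level as a covariate the log2 fold changes of experiment B were 5.56 for 4833412C05Rik, 2.70 for Gm11627, 4.86 for Gm11946 and -6.01 for Gm34302, and Gm11627 and Gm11946 no longer passed the threshold. The summed atrial markers did not overlap between the groups, so this covariate cannot be cleanly told apart from the group. With it limma called 9 genes in all, and the targeted gene Cap2 missed the threshold too (adjusted p = 0.333). Calls lost with it, here and above, are therefore not read as dependence on atrial tissue, which was not tested.

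The genes whose pattern was most like each transcript were ranked by Pearson's r on the log2 scale, averaged over the 6 libraries of experiment A and the 9 of experiment B for the risers and over the 9 for Gm34302. Much of such an r comes from the group difference itself, so values after removal of the group means are given as well. For 4833412C05Rik in experiment A the latter rest largely on CAP2 -/- replicate 2, at 1.72 TMM-adjusted CPM against 0.816 and 0.827 in replicates 1 and 3. For 4833412C05Rik the most similar gene was Myl1, a myosin light chain gene of fast skeletal muscle (r = 0.990 and 0.952; within groups 0.89 and 0.72), followed by Lman1l, Acta1, Adamts8 and Ankrd1, whose r within groups ran from -0.13 (Acta1) to 0.91 (Ankrd1) in experiment A and from -0.62 (Ankrd1) to 0.70 (Adamts8) in experiment B. For Gm11627 it was Acta1, skeletal alpha-actin (0.991 and 0.954; within groups 0.62 and 0.15), followed by the skeletal calsequestrin gene Casq1, the myosin light chain gene Myl9, Acta2 and Dact3, at 0.40 to 0.87 and 0.63 to 0.66 within groups. For Gm11946 it was Acta1 again (0.980 and 0.894; within groups -0.22 and -0.34), then 2700046G09Rik, Ankrd1, Casq1 and Nppb, of which Casq1 gave -0.38 and -0.19 within groups, Nppb -0.10 and -0.20, Ankrd1 0.17 and -0.37, and 2700046G09Rik -0.10 and 0.91. For Gm34302 the 5 were Ttll1, a tubulin-modifying enzyme gene (r = 0.967), the carnitine acetyltransferase gene Crat (0.964), the fatty acid oxidation gene Ech1 (0.963), the lipid droplet gene Fitm1 (0.962) and Impa2 (0.961). Within groups Fitm1 gave 0.89, Ech1 0.70 and the other 3 from 0.54 to 0.55.

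The transcripts were also set against each other. Over the 9 libraries of experiment B the r between pairs of risers was 0.92 to 0.97, and Gm34302 gave -0.96 with 4833412C05Rik, -0.88 with Gm11627 and -0.86 with Gm11946. After removal of the group means 4833412C05Rik gave 0.16 with Gm11627, -0.19 with Gm11946 and -0.31 with Gm34302. Gm11627 then gave 0.77 with Gm34302 and 0.44 with Gm11946, and Gm11946 gave 0.51 with Gm34302, so the sign of both pairs with Gm34302 turned. Gm34302 had only 3, 0, 0 and 3 normalized counts in Cre+ hearts. Its r and SD within groups therefore rest in part on differences at the floor, and nothing is read from the turned signs. The controls of 4833412C05Rik (1, 1, 1, 0 and 1) and Gm11946 (2, 2, 1, 1 and 0) were at the floor too. In experiment A the values after this removal were 0.18 and 0.19 for 4833412C05Rik with Gm11627 and Gm11946, and -0.76 between Gm11627 and Gm11946. The SD within groups on the log2 scale was largest for Gm34302 (0.97) and Gm11946 (0.84) and smaller for 4833412C05Rik (0.52) and Gm11627 (0.42). In experiment A it was 0.31, 0.35 and 0.14 for 4833412C05Rik, Gm11627 and Gm11946.

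The 4 transcripts come from a large class of genes listed with predicted or clone names, 15062 in experiment A and 30091 in experiment B. Of the 2790 tested in experiment A, 15 rose (0.538%) and 3 fell (0.108%), and of the 520 tested in experiment B, 9 rose (1.73%) and 7 fell (1.35%; 3.08% in either direction), the described transcripts included. The median log2 fold change of the class was 0.051 in experiment A and -0.211 in experiment B, against 0.006 and -0.116 over all genes. Among 364 such genes tested in both experiments, 3 were called in both, all of them 4833412C05Rik, Gm11627 and Gm11946. They are 16.7% of those called in experiment A and 18.8% of those called in experiment B, and 9 of the 18 called in experiment A and 6 of the 16 called in experiment B were tested in the other experiment. Since these 3 were chosen for strong changes in these same data, nothing is read from the overlap. The share of all genes called in both experiments is not given here.

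Apart from the described transcripts, the largest rises of the class in experiment A included genes that overlap or copy others. Gm13054, antisense to the natriuretic peptide gene Nppa, was at 2191 ± 334 CPM in CAP2 -/- and 44.6 ± 17 CPM in WT hearts (SD, n = 3 each; edgeR log2 fold change 5.61, SE 0.31, adjusted p = 0.000307). It was at 0 or 1 in every library of experiment B although Nppa had 80982 to 155401 normalized counts in Cre+ hearts, and how strand was used in counting is not given. The processed pseudogenes Gm5388 (log2 2.63) and Gm12131 (1.89) rose in experiment A and were at 0 in every library of experiment B, and reads of such copies are uncertain. The call of Gm12131 was lost without CAP2 -/- replicate 2 or WT replicate 1 or 2 (edgeR adjusted p = 0.138, 0.1 and 0.0525). The intergenic 4833427F10Rik rose (log2 3.91, SE 0.63, edgeR adjusted p = 0.00283); in experiment B it lay below the filter, with 16, 22, 16 and 21 normalized counts in Cre+ and 6, 0, 1, 3 and 4 in controls. The gene listed as 1500015O10Rik, which RefSeq names Ecrg4 and which encodes a secreted peptide precursor, rose in experiment A (3.63, SE 0.50, edgeR adjusted p = 0.0007) and gave 3.20 in experiment B (limma adjusted p = 0.147).

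In experiment B the largest other rises of the class were 6030408B16Rik, named Smim41 in RefSeq, at 185 ± 174 in Cre+ and 19.4 ± 12.3 normalized counts in controls (SD, n = 4 and 5; limma log2 fold change 2.96, SE 0.64, adjusted p = 0.0435), 2200002D01Rik (2.82, SE 0.46), the intergenic Gm30735 (2.62, SE 0.35) and 1700120C14Rik (1.20, SE 0.26). A530016L24Rik fell, at 37 ± 14.5 in Cre+ and 195 ± 29.8 in controls (-2.39, SE 0.28, limma adjusted p = 0.00183), as did the intergenic Gm43672 (-1.43, SE 0.25). Where these were tested in experiment A they gave 0.81 for 6030408B16Rik, 0.62 for 2200002D01Rik and -0.21 for A530016L24Rik, and none passed. The 3 falls of the class in experiment A were Gm47283 (-1.66), BC067074 (-1.27) and Gm10524 (-0.97). Gm47283 is annotated on chromosome Y, and the libraries of experiment A are labelled female. In experiment B it had 396, 123, 84 and 104 normalized counts in Cre+ and 279, 310, 208, 0 and 49 in controls. The males there were Cre+ replicate 4 and control replicates 4 and 5, so its counts were not confined to males. The calls of the 3 falls in experiment A were each lost when any of several libraries was left out. That of Gm47283 was lost without CAP2 -/- replicate 2 or 3 or WT replicate 2 (edgeR adjusted p of up to 0.126). That of BC067074 was lost without these or WT replicate 3 (up to 0.179). That of Gm10524 was lost when any library but CAP2 -/- replicate 2 was left out (up to 0.181). In experiment B, 6030408B16Rik and 1700120C14Rik lost their calls without Cre+ replicate 2, 3 or 4 or control replicate 1, 2 or 3 (limma adjusted p of up to 0.164 and 0.257). The call of 2200002D01Rik was lost without Cre+ replicate 2, 3 or 4 or control replicate 1 (up to 0.104), and that of Gm43672 without Cre+ replicate 2 or 3 or control replicate 1, 2 or 3 (up to 0.0782).

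**Figure D5:**
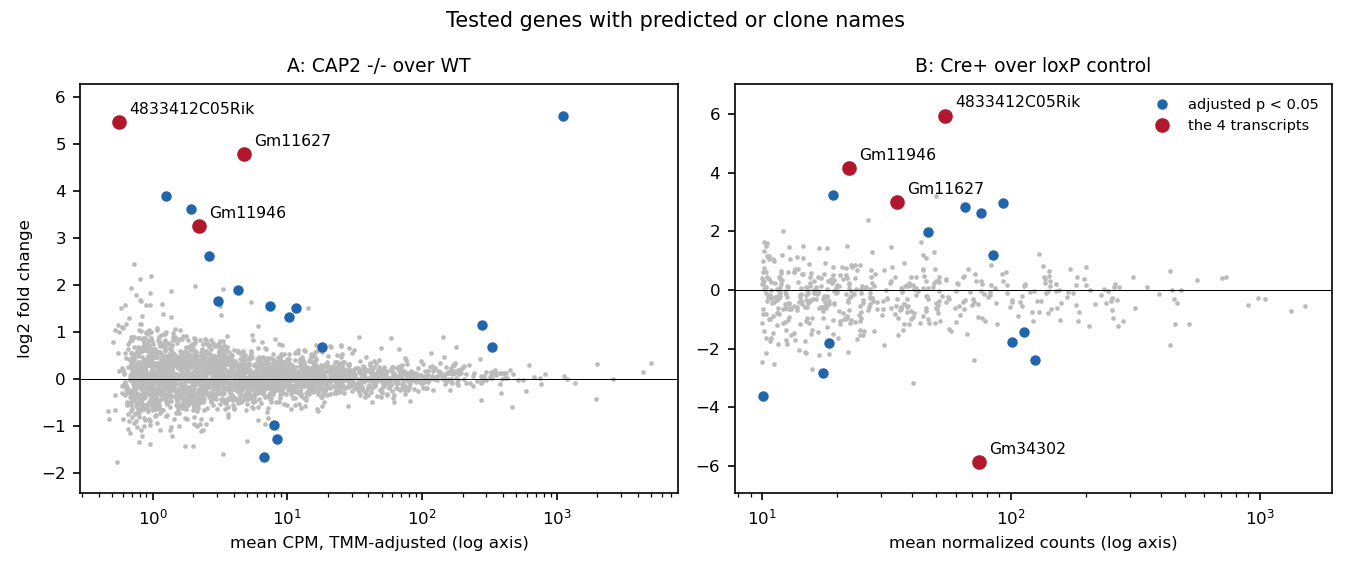
Log2 fold change against mean level (log axis) for tested genes with predicted or clone names in experiment A (left) and experiment B (right); blue points have an adjusted p under 0.05 and red points are the 4 transcripts. Only Gm13054, at 5.61, lies above 4833412C05Rik in experiment A, and in experiment B 4833412C05Rik, at 5.95, and Gm34302, at -5.87, are the outermost points.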

How the data were processed

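RNA of whole mouse hearts was measured in 15 of 16 labelled libraries, and samples were grouped by their genotype labels. Experiment A comes as one table by the authors, with estimated counts per gene and per exon, not normalized (26.5% of gene values above 0 are whole), and transcript rows with values from 0 to 1. The authors' deposited comparison gives the mean normalized signal of each gene beside log2 fold changes, standard errors and test statistics (scores) and p-values, per the file headers. Experiment B comes as whole-number read counts normalized by the authors in an unstated way, here treated as a score; reads could not be recovered, so depth is unknown and no count test was run. The submitters' processing notes name STAR 2.6.0c, DESeq and mm10 without a role. Annotation, counter and use of strand: not given in the sources used here.

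On rounded estimated counts CAP2 -/- was compared with WT by edgeR 4.0.16 under R 4.3.3 (TMM, filterByExpr, robust quasi-likelihood). Genes averaging at least 10 normalized counts were compared between Cre+ and loxP control by limma 3.58.1 (robust trend) on log2(value + 1) with a sex term; this scale understates changes of low genes. P-values were adjusted by Benjamini-Hochberg over all genes tested, with called meaning an adjusted p under 0.05. CPM per library are on unadjusted totals for the 4 described transcripts, and on TMM-adjusted totals of tested genes for other genes, all means and values per kb. Patterns in experiment A used log2(CPM + 0.5). Identifiers were placed with GENCODE M21 (36308 of 38087 in experiment A and 54079 of 54232 in experiment B found); the experiment B table gives coordinates that run past each gene end. Promoter windows and names are from RefSeq (GRCm38.p6), coding sequences from GENCODE.

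Predicted or clone names are Gm with digits, names ending in Rik, and clone names. Other genes named are Cap2, tested neighbours, the 5 most similar genes per transcript, the 5 largest rises and falls of the class among called genes with groups that do not overlap and a mean of at least 1 CPM or 50 normalized counts, markers, and genes said to be chosen after their values were seen. The transcripts, lists and rules were chosen with earlier results of these data known. Libraries within a group of experiment A were further apart than sampling noise (chi-square per gene of 11.4 to 31.0). The scripts were tested on simulated data. Alternatives covered the tool, filters, pseudocount, scaling, sex, a replicate block, covariates and leaving out each library; DESeq2 1.42.0 was one.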

Additional observations from a re-analysis of the deposited data

Results flagged for a closer look

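Of the 14 groups of 4 or 5 libraries checked, 2 held a library far from the others by Dixon's ratio, which chance does in about 1 of 20 groups. 4833412C05Rik had 0 normalized counts in loxP control replicate 4 and 1 in each of the other 4 controls, a difference of a single count. Fzd2 had 153 normalized counts in Cre+ replicate 1 and 83 to 87 in the other 3 Cre+ libraries; this library also had the highest Gm11627 (83) and Gm11946 (111) and the lowest Sln (8) of the Cre+ group.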

How the results depend on the processing

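No result changed direction in any alternative run. Without 1 library at a time, the log2 fold changes of experiment A ran from 5.05 to 6.96 for 4833412C05Rik, 4.44 to 5.64 for Gm11627 and 3.07 to 3.42 for Gm11946, and the count of genes called from 126 to 275 (137 without CAP2 -/- replicate 2, 126 without CAP2 -/- replicate 3 and 144 without WT replicate 3). With a pseudocount of 10, those of experiment B were 3.48 for 4833412C05Rik, 2.13 for Gm11627, 2.12 for Gm11946 and -3.54 for Gm34302, smaller by construction. A mean of at least 1 CPM left out 4833412C05Rik in experiment A, and a mean of at least 50 left out Gm11627 and Gm11946 in experiment B.

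In experiment A DESeq2 called 402 genes, 32 of the class with predicted names, and no filter 512 and 57; without 1 library the class count ran from 13 to 28, the highest without CAP2 -/- replicate 1. In experiment B no filter called 346 genes, 31 of the class, the mitochondrial share as a covariate 36, 7 of the class and 1 neighbour, and the atrial markers as a covariate 9, 2 of the class and 0 of 22 neighbours by limma (4 at an unadjusted p under 0.05). A mean of at least 50 left 8 of the class. TMM scaling gave 151 higher and 67 lower of 218, and quantile scaling 211 and 124 of 335. Without 1 library, 39 to 695 genes, 6 to 42 of the class and 0 to 5 neighbours were called by limma; where it was 0, 7 to 9 had an unadjusted p under 0.05. Cap2 missed the threshold with the atrial covariate (-2.01), without Cre+ replicate 4 (-2.00) and without control replicate 1 (-2.05), in a range over libraries left out of -2.43 to -2.00. The cause was not tested.

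Deviations of same-numbered libraries correlated at -0.169 to -0.0206 in experiment A and at -0.113 to 0.240 in experiment B. In these, 0 of 3 and 2 of 4 correlated best with their own number. With so few numbers this cannot settle whether they pair samples, and the main fits treated the libraries as unpaired. In experiment B the run with the replicate block also left out control replicate 5 and the sex term, and it called 394 genes. Leaving out control replicate 5 alone gave 525. With the block the log2 fold changes were 5.34, 4.82 and 3.28 for 4833412C05Rik, Gm11627 and Gm11946 in experiment A. They were 6.09, 3.02, 4.02 and -5.94 for these and Gm34302 in experiment B.

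Experiment A rests on 3 libraries a group and on as few as 1 count in WT for 4833412C05Rik. The depth of experiment B is unknown, and its count of calls moved by over 1.5 times without any 1 of its 9 libraries.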
